A study of Mus musculus with 23 samples.

Results

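The genes described here are 10 imprinted genes of the mouse: Igf2r, Ndn, Igf2, H19, Cdkn1c, Peg3, Mest, Dlk1, Grb10 and Plagl1. They were chosen by their log2 levels in these same arrays, and Igf2r and Ndn head the list for the way those levels varied between subclones. Of the 10, 9 were measured among 18193 genes in all. H19 was not analysed here, since its probe set carries several gene symbols. For each gene the probe set with the highest mean log2 level over all 23 arrays was used. The question was which of these genes varied between the 8 subclones by degrees and which were on in some subclones and off in others.

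Imprinted genes are transcribed mainly from the copy inherited from 1 parent, because a mark of DNA methylation set in the egg or sperm is kept through cell division at a control region of the locus. They lie in clusters, often with a long noncoding RNA that silences protein-coding neighbours on the same copy. Many of them set growth before birth, are silenced in most adult tissues, and are known to change in tumour cells. Igf2r, H19, Cdkn1c and, in most tissues, Grb10 are expressed from the maternal copy. Ndn, Igf2, Peg3, Mest, Dlk1 and Plagl1 are expressed from the paternal copy. An expression array gives the sum of both copies and cannot tell them apart.

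The cells were subclones 2, 3, 6, 18, 19, 23, 24 and 28 of the mouse line LLC, short for Lewis lung carcinoma, which grows as a transplanted tumour. Each subclone was grown out of the parental culture by limiting dilution, so that it is a single clonal line, and all were kept in DMEM with 10% serum and antibiotics. All arrays of all subclones were taken after 24 h in serum-free FreeStyle medium, and no untreated or parental array was among them. There were 3 arrays per subclone, except for subclone 6 with 2, called biological replicates in the labels. Nothing states that they came from separate cultures, so p-values measure only the spread between these arrays, which may be technical.

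Levels are log2(intensity + 16) of Affymetrix probe sets, and folds on that scale understate the change of dim genes. A level of 6, an intensity of 48, served as the floor. For comparison, 38 olfactory receptor genes, which such cells should not express, had a median level of 4.63 and a 95th percentile of 5.72. Array medians lay between intensities of 40.83 and 45.74. The number of arrays limits the precision. The general markers of epithelial tumour cells were uneven: Krt18 lay between 10.82 and 11.97 and Epcam between 7.05 and 7.99, whereas Cdh1 was under the floor on every array and Krt8 was under it in subclone 18. Of 5 lung epithelial markers, Nkx2-1, Sftpc, Scgb1a1 and Foxj1 were under the floor on every array and Sftpb was just above it (6.48 to 6.68). All 4 measured leukocyte markers and all 4 endothelial markers were under the floor on every array, with summed levels of 5.60 to 6.01 and 6.25 to 6.48 over the subclones. Mesenchymal Vim, Fn1 and Col3a1 were at 13.18 or more, and Col1a1 was under the floor. In bulk RNA, fewer cells expressing a gene and less RNA per cell cannot be told apart.

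The promoters of the 3 members with the widest ranges are shown first, because imprinting acts through CG methylation and they differ in CG content. Of the 10 genes, 8 are in the RefSeq promoter table of build GRCm38.p6. Each line holds the 250 bases before the annotated start, 5′ to 3′ on the gene's strand, with every CG dinucleotide in capitals.
Igf2r, chr17:12769707-12769956, minus strand: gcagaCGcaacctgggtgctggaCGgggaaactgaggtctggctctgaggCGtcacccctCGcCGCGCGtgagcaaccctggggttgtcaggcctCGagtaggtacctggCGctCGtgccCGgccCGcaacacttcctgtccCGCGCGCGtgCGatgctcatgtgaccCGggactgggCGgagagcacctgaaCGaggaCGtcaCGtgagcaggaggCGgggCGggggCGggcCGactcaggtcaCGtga
Ndn, chr7:62348027-62348276, plus strand: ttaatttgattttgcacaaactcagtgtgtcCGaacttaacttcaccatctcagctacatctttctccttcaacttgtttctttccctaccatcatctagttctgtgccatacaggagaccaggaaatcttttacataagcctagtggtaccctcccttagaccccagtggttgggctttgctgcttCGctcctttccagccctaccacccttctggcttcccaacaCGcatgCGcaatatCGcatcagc
Peg3, chr7:6730420-6730669, minus strand: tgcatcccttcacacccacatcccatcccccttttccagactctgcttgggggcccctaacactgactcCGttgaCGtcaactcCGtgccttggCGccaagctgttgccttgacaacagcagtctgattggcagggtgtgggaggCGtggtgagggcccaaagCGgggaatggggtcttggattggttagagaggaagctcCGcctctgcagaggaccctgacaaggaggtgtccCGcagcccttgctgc

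The Igf2r window held 27 CG dinucleotides, more than 91.4% of the 32851 windows in the table, with 0.91 of the number its base composition predicts. The Ndn window held 5, below the median of 6 over all windows, and its last CGs stand close to the start. The Peg3 window held 8. The GC box letters GGGCGG, searched on both strands, occurred 3 times before Igf2r and not before Ndn or Peg3, and are in 32.7% of all windows. The letters CACGTG occurred 2 times before Igf2r and are in 6.02% of windows. CCAAT, on either strand, occurred 2 times before Peg3 and is in 33.8% of windows. TATAAA is in 12.4% of windows and in none of the 3. These are matches of letters in a window and no measurement of binding or methylation.

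Pattern classes were set by the gaps between subclone means. A gene was on/off if a gap of at least 2 log2 units parted subclones with every array under the floor from subclones with every array above it, and stepped if it had such a gap without meeting the floor condition. It was graded if its means ranged over at least 1 log2 unit with no such gap, flat if they ranged over less, and off if every array was under the floor. Of the 9 measured genes, 1 was stepped (Igf2r), 2 graded (Ndn and Peg3), 4 flat (Igf2, Mest, Grb10 and Plagl1) and 2 off (Cdkn1c and Dlk1), and 0 were on/off. Among all genes, 0.275% were on/off, 0.132% stepped, 12.0% graded, 52.0% flat and 35.6% off. Ndn and Mest lay next to a border: the widest gap of Ndn was 1.85 against the 2 required, and the range of Mest was 0.99 against the 1 required. No test is given for the 9 genes themselves, as their values chose them. For reference, 12.7% of all genes passed the F-test across the 8 subclones (limma, adjusted p under 0.05) and ranged over 1 or more, and 61.8% passed it at any range.

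**Figure D1:**
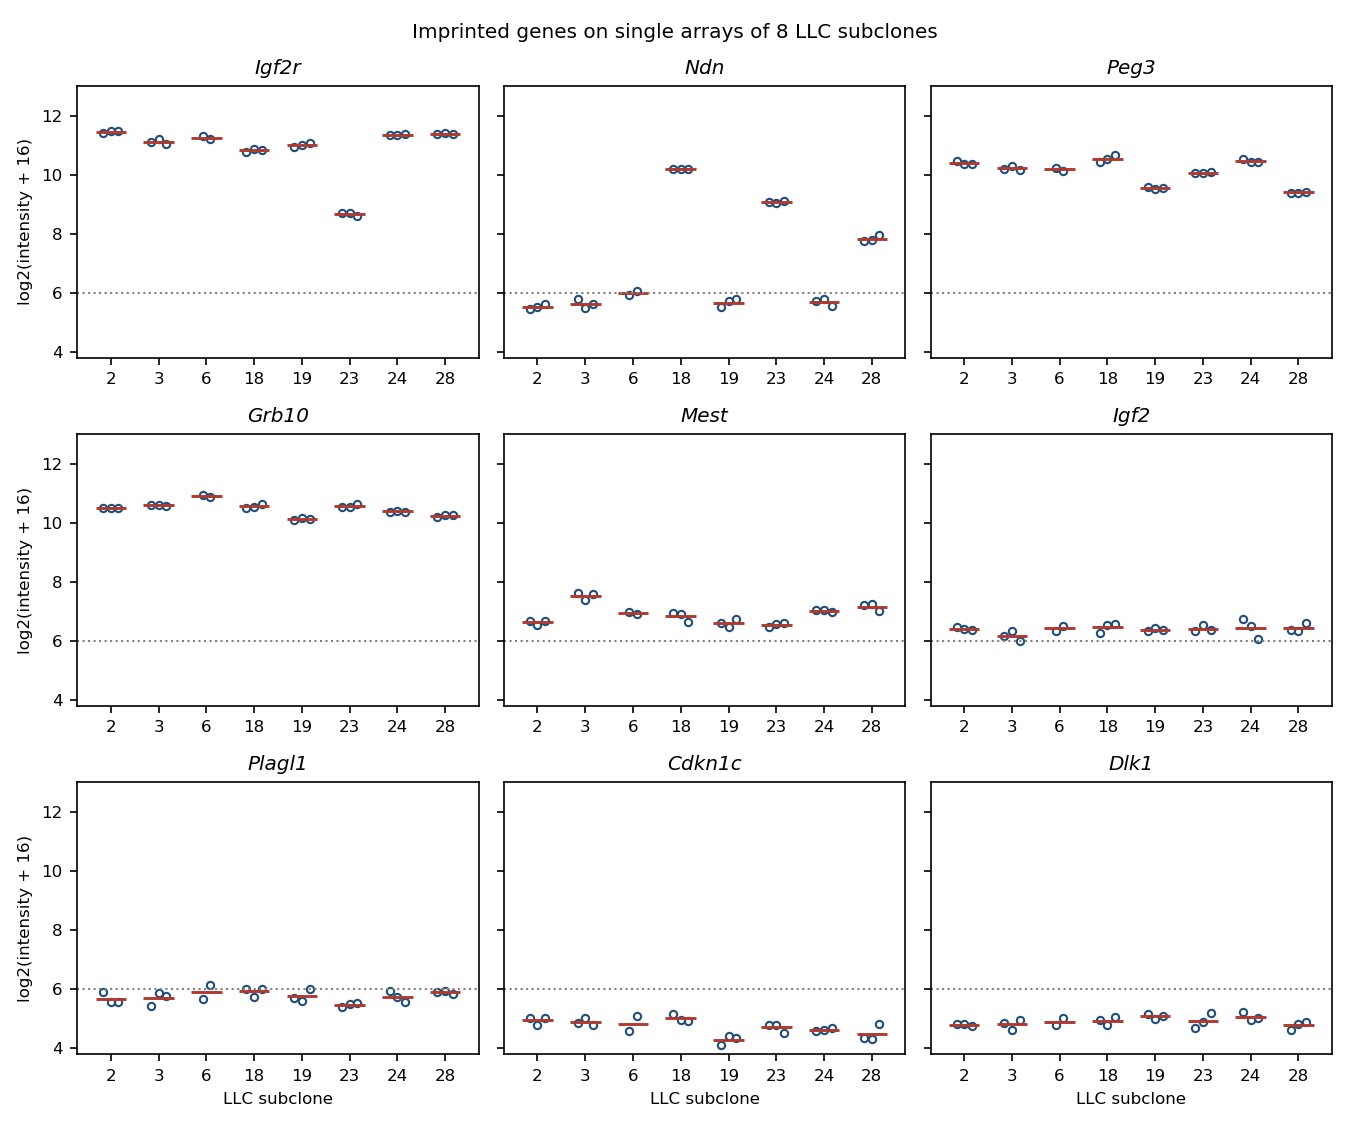
Levels of the 9 measured imprinted genes, as log2(intensity + 16), on each of 23 arrays (circles) by LLC subclone, with the subclone mean as a red bar and the floor of 6 as a dotted line. Igf2r is low in subclone 23 alone, Ndn is high in subclones 18, 23 and 28, and Cdkn1c and Dlk1 stay under the floor throughout.

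Igf2r encodes the cation-independent mannose 6-phosphate receptor, which carries lysosomal enzymes to the lysosome and takes IGF2 from the cell surface for degradation. It was expressed in every subclone and lower in 1 of them. Its intensities in subclone 23 were 397.71, 399.69 and 371.05, against 1745.74 to 2837.81 on the other 20 arrays. All 3 arrays of subclone 23 therefore lay below every other array.

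The subclone means of Igf2r, from the highest, were 11.45 ± 0.04 (SD, n = 3) in subclone 2, 11.38 ± 0.02 in subclone 28, 11.35 ± 0.03 in subclone 24 and 11.25 ± 0.07 (n = 2) in subclone 6. They continued with 11.11 ± 0.09 in subclone 3, 11.00 ± 0.06 in subclone 19, 10.82 ± 0.04 in subclone 18 and 8.66 ± 0.06 in subclone 23. Neighbours in this order had overlapping arrays between subclones 28 and 24 and between 3 and 19. The range was 2.79 log2 units, 6.92-fold, of which the step between subclones 18 and 23 made up 2.16. The other 7 subclones spanned 0.63. Subclone 23 differed from the mean of the others by −2.53, and its lowest array, at 8.60, was still far above the floor, so the gene was reduced and not off. The other single-gene probe set of Igf2r gave a range of 2.72 with the same order of subclones and 8.65 in subclone 23.

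No gene next to Igf2r was lower in subclone 23 to a like degree. The 5 nearest measured genes on each side differed there from the mean of the others by −0.36 (Airn) to 0.24 (Map3k4), and most of them were under the floor. Mrpl18, a mitochondrial ribosomal protein gene with a level of up to 10.75, differed by −0.11. Expressed genes of chromosome 17 had a median difference of 0.07 in subclone 23 (515 genes).

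Airn, the paternally expressed noncoding RNA that runs antisense across the Igf2r promoter and silences Igf2r on that copy, was the only one of these 10 neighbours to pass the F-test and range over at least 1 (1.84, limma adjusted p = 3.58e-14). It was highest in subclone 3 (10.34 ± 0.12) and subclone 28 (10.27 ± 0.03) and lowest in subclone 19 (8.50 ± 0.08). In subclone 23 it was at 9.27 ± 0.06, above subclones 18 and 19 and below the other 5. Over the 8 subclone means, Igf2r and Airn had Pearson's r = 0.33 and Spearman's rho = 0.62, as a description of means that come from the same arrays. The 5 Airn probe sets disagreed on the order. Subclone 19 was lowest on 4 of them, but on 2 of the dimmer ones subclone 23 was highest (7.39 and 6.73), followed by subclone 24 (7.33 and 6.67). With the mean of all Airn probe sets the range was 0.99 and no longer reached 1. The sources do not give the strand of these probe sets, and Airn overlaps Igf2r, so signal from the other transcript was not tested.

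**Figure D2:**
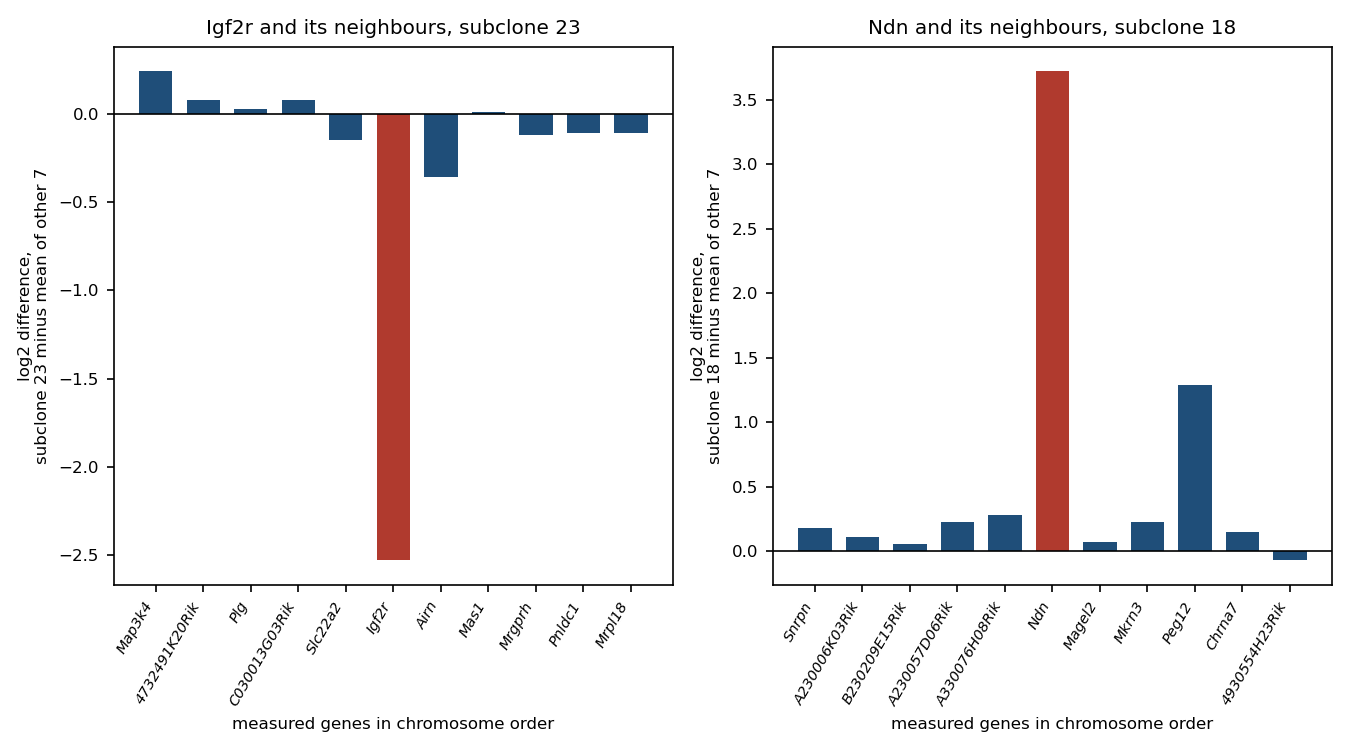
Log2 difference of a subclone from the mean of the other 7 for Igf2r in subclone 23 (left) and Ndn in subclone 18 (right), in red, and for the 5 nearest measured genes on each side, in blue, in chromosome order. Igf2r stands alone at −2.53 and Ndn at 3.72, with Peg12 at 1.29 the only neighbour of Ndn beyond 1.

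Other genes of the receptor's pathway were examined from a list of 25, of which 24 were measured: the IGF receptors, adaptors and binding proteins, the enzymes that make the mannose 6-phosphate tag, and the sorting adaptors. Of the 24, 8 (33.3%) passed the F-test and ranged over 1 or more, against 12.7% of all genes, and the median range was 0.63 against 0.49. The list was chosen with earlier results of these data known. Of its 24 measured genes 4 were off, against 35.6% of all genes. The higher share is therefore a description, and an excess was not tested. Igfbp7, an IGF-binding protein family member, had the widest range (2.74, adjusted p = 1.56e-15), at 9.49 ± 0.07 in subclone 23 and 6.75 ± 0.12 in subclone 18. Grb14, an adaptor of the same family as Grb10, was highest in subclone 18 (10.45 ± 0.05) and lowest in subclone 19 (8.42 ± 0.05), with a range of 2.03. Igfbp4 and Igfbp6 were lowest in subclone 18 (11.46 and 9.41), with ranges of 1.16 and 1.13. Gga2, which sorts mannose 6-phosphate receptors at the Golgi, and Plaur, the urokinase receptor, which binds IGF2R, had ranges of 1.06 and 1.05.

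Irs1, the insulin receptor substrate, and Gnptab, which makes the mannose 6-phosphate tag, also passed (1.05 and 1.03). The IGF, insulin and smaller mannose 6-phosphate receptors were flat. M6pr, the smaller mannose 6-phosphate receptor, stayed between 11.15 and 11.79 on all arrays, Igf1r between 10.06 and 10.92 and Insr between 8.61 and 9.45. Against the mean of the other 7, calls at an adjusted p under 0.05 and a difference of at least 1 were few. Igfbp7 was called higher in subclone 2 (1.02 ± 0.047 SE, adjusted p = 9.32e-12) and subclone 23 (1.27 ± 0.047, adjusted p = 4.01e-13) and lower in subclone 18 (−1.87 ± 0.047, adjusted p = 5.03e-16). Grb14 was called higher in subclone 18 and lower in subclone 19. Among all genes, 0.478%, 0.555% and 0.857% were called higher in subclones 2, 23 and 18, and 1.79% and 0.830% lower in subclones 18 and 19.

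Igf2, the growth factor that IGF1R, INSR and IGF2R bind, was low in all 8 subclones. Its brighter probe set lay between 6.0 and 6.73 on the 23 arrays, with a median of 6.38, and its subclone means ranged over 0.28, about the SD within subclone 24 (0.34). Arrays overlapped between all 7 pairs of neighbours in its order. Its other probe set was under the floor on all 23 arrays, at 4.18 to 4.86. Igf1 was also under the floor on every array. Igf2 and Igf2r had r = −0.08 and rho = 0.05 over the 8 subclone means.

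Grb10, an adaptor that binds the insulin and IGF1 receptors and restrains their signal, was expressed at 10.10 to 10.93 on all arrays. Its subclone means ranged over 0.78 log2 units, from 10.13 ± 0.03 in subclone 19 to 10.90 ± 0.04 (n = 2) in subclone 6, both apart from their neighbours in the order. Its replicate SDs were 0.08 or less, so that the order on its brightest probe set was steadier between arrays than that of the dim genes. Subclones 3, 18 and 23 (10.59, 10.56 and 10.56) had overlapping arrays. Its other 2 probe sets were near the floor and ranged over 0.40 and 0.59. They gave other orders, with the highest mean in subclones 3 and 18 and the lowest in subclones 19 and 28. Ddc, its neighbour that is imprinted in the heart, was under the floor on every array.

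Ndn encodes necdin, a MAGE family protein that restrains growth and promotes survival in neurons, from an intronless gene of the Prader-Willi region. It had the widest range of the 9 genes, with 3 subclones clearly expressing it, each at a level of its own. Its intensities were 1163.76, 1149.87 and 1164.28 in subclone 18, 524.02, 511.67 and 532.14 in subclone 23, and 200.98, 202.64 and 233.74 in subclone 28. On the 14 arrays of the other 5 subclones they lay between 27.33 and 50.07.

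On the log2 scale, the highest Ndn mean was 10.20 ± 0.01 for subclone 18, followed by 9.07 ± 0.03 for subclone 23 and 7.83 ± 0.11 for subclone 28. The rest were 5.98 ± 0.09 (n = 2) for subclone 6, 5.68 ± 0.12 for subclone 24, 5.66 ± 0.14 for subclone 19, 5.62 ± 0.16 for subclone 3 and 5.53 ± 0.09 for subclone 2. The 3 steps at the top were 1.13, 1.24 and 1.85 log2 units, and no arrays overlapped across them, nor between subclones 6 and 24. Subclones 24, 19, 3 and 2 overlapped in sequence. The range was 4.67 log2 units. No fold is given for it, as its low end lies under the floor, like 13 of the 23 arrays.

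The class of Ndn turned on the probe set. The array holds 8 for this gene. The one with the highest mean log2 level read 5.53 to 5.68 in subclones 2, 3, 19 and 24, where the other varying ones read 4.09 to 4.68. Of the 8, 4 were on/off, 1 stepped, 2 graded and 1 was off on every array. On the 7 that varied, subclone 18 was highest, then 23, then 28, and the widest gap, 1.85 to 2.70, always lay between subclones 28 and 6. The probe set with the widest range had means of 11.35 (subclone 18), 10.46 (subclone 23), 9.28 (subclone 28) and 6.58 (subclone 6), while subclones 2, 3, 19 and 24 were at 4.42 or less. Its intensities were 90.02 and 69.82 in subclone 6 and between 1.46 and 8.0 in those last 4 subclones. Subclone 6 was thus an intermediate on this probe set, which the probe set with the highest mean barely showed. Its range of 7.06 has no firm lower end, since it reaches the floor. This probe set was on/off. Its intensities in subclone 18 were 2434.36 to 2718.12, against 1149.87 to 1164.28 on the probe set used here. A ranking of probe sets by mean intensity instead of mean log2 level was not run, and could give Ndn another class. With the mean of all probe sets, Ndn was on/off with a range of 5.28. The on/off probe sets did not place the split alike. Subclone 6 was above the floor on 2 of them (6.58 and 6.72) and under it on the other 2 (4.64 and 5.48).

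**Figure D3:**
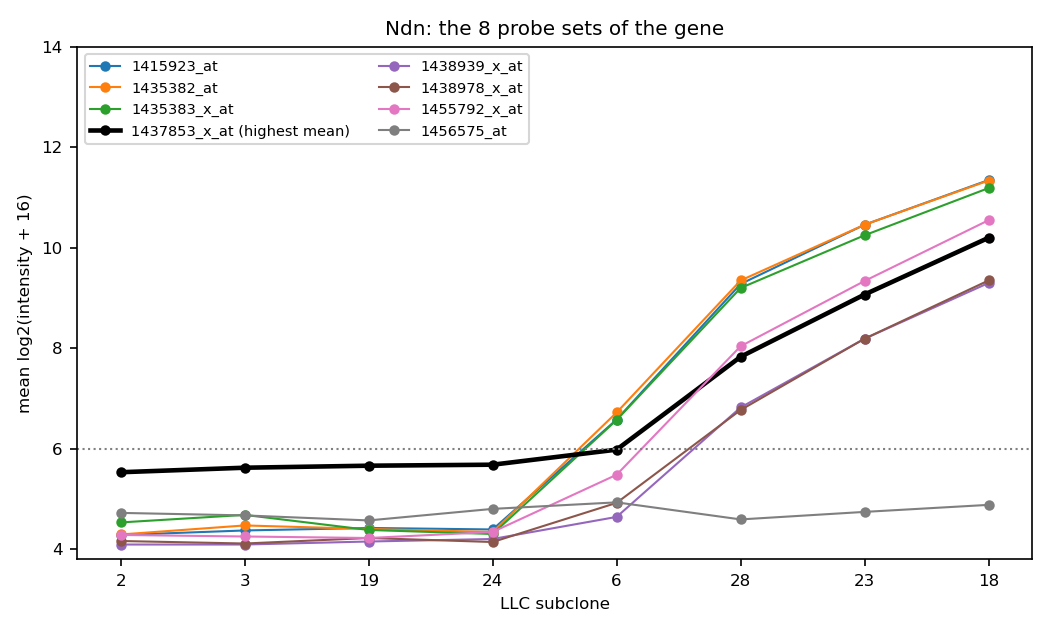
Subclone means of the 8 Ndn probe sets, as log2(intensity + 16), with subclones in order of Ndn level and the floor of 6 as a dotted line. The black line is the probe set with the highest mean log2 level. In subclones 2, 3, 19 and 24 it sits at 5.53 to 5.68, above the 4.09 to 4.68 that 6 other varying probe sets read there.

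Of the imprinted neighbours of Ndn, Magel2 and Snrpn were under the floor on every array. Magel2, the next MAGE gene, stayed between 5.16 and 5.69 on all arrays and Snrpn, whose promoter lies at the control region of this domain, between 4.26 and 5.21. Neither passed the F-test (adjusted p = 0.328 and 0.404). Probe sets with several symbols were left out and Snurf was not measured, so the Snrpn level is that of a probe set with Snrpn as its only symbol. Ndn had r = 0.10 and rho = 0.19 with Magel2 and r = 0.26 and rho = 0.29 with Snrpn over the 8 subclone means, with both partners under the floor. Peg12, a paternally expressed gene of the same domain, passed with a range of 2.21 (adjusted p = 2.46e-09). It was at 6.63 ± 0.09 in subclone 18 and was called higher there (1.29 ± 0.093 SE, adjusted p = 1.35e-09). It was also called lower in subclone 24 (4.42 ± 0.10, adjusted p = 6.05e-09), but that level and those of 6 other subclones lay under the floor, where values have no order. The 3 arrays of subclone 18 were the only ones of the 23 above the floor for Peg12. In subclones 23 and 28, where Ndn was also on, it differed by −0.05 and 0.17. Mkrn3, a zinc finger gene of the domain, had a range of 1.22, from 5.27 in subclone 24 to 6.49 in subclone 28. The widest gap, 0.64, set subclone 24 apart (difference −0.88, adjusted p = 1.17e-08) from the other 7, at 5.91 or more. The Mkrn3 means of subclones 24, 6 and 19 (5.27, 5.91 and 5.99) were under the floor, and the highest was just above it. Expressed genes of chromosome 7 had median differences of 0.05, 0.07 and 0.04 in subclones 18, 23 and 28 (793 genes).

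Peg3, a large zinc finger protein expressed from the paternal copy, was graded. Its level lay between 9.39 and 10.65 on all arrays. Intensities were 655.92, 652.64 and 657.76 in subclone 28 and 751.47, 712.68 and 727.57 in subclone 19, against 1046.24 to 1590.63 on the 17 other arrays. Subclones 28 and 19 were low without overlap, and the higher of them, subclone 19, lay 0.52 log2 units below subclone 23, the next in order.

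The means were 10.54 ± 0.11 in subclone 18, 10.45 ± 0.06 in subclone 24, 10.39 ± 0.05 in subclone 2, 10.22 ± 0.07 in subclone 3 and 10.18 ± 0.07 (n = 2) in subclone 6. Below these came 10.06 ± 0.01 in subclone 23, 9.54 ± 0.04 in subclone 19 and 9.39 ± 0.01 in subclone 28. Subclones 18, 24 and 2 overlapped in sequence, and so did 3 and 6. The range was 1.15 log2 units, 2.22-fold. Of its 5 probe sets, 3 were graded with ranges of 1.15, 1.17 and 1.57, all highest in subclone 18 and lowest in subclone 28. The other 2 were under the floor on all arrays, and averaging all 5 lowered the range to 0.80, which is flat. Expressed genes of chromosome 7 had a median difference of −0.18 in subclone 19, where Peg3 differed by −0.63 from the mean of the others, and of 0.04 in subclone 28, where Peg3 differed by −0.81. The genes that share its domain, Usp29 and Zim1, were under the floor on all arrays.

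Mest, a paternally expressed gene for a hydrolase-like protein of mesoderm, was dim and close to graded. Its arrays in subclone 3 were at 7.62, 7.39 and 7.59, above all others, which lay between 6.46 and 7.24. Its mean was 7.53 ± 0.12 in subclone 3, 7.15 ± 0.12 in subclone 28, 7.02 ± 0.03 in subclone 24 and 6.95 ± 0.06 (n = 2) in subclone 6. It was 6.83 ± 0.17 in subclone 18, 6.63 ± 0.08 in subclone 2, 6.61 ± 0.14 in subclone 19 and 6.55 ± 0.08 in subclone 23. Its range was 0.99, and without subclone 3 replicate 2 or subclone 23 replicate 3 it was 1.06 or 1.03, which is graded. From subclone 28 down, arrays of all neighbours in the order overlapped. Copg2, which overlaps Mest at its far end, was at 9.05 to 9.83 and had r = 0.65 and rho = 0.48 with Mest over the 8 means.

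Plagl1, a zinc finger transcription factor that regulates other imprinted genes, was at or under the floor. Its arrays lay between 5.39 and 6.13, with 19 of 23 under the floor, and its other 2 probe sets were under it throughout. Cdkn1c, the cyclin-dependent kinase inhibitor p57, lay between 4.11 and 5.16, and Dlk1, a membrane protein related to Notch ligands, between 4.62 and 5.23. Both were under the floor on all 23 arrays. For these 3 genes no order of the subclones is given, since values at the floor have none. Meg3, the maternally expressed noncoding RNA of the Dlk1 domain, was just above the floor on its probe set at 6.74 to 7.39, and Rian was under it. Phlda2 and Slc22a18, neighbours of Cdkn1c in an imprinted cluster, were under the floor on all arrays.

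A further list held 64 other genes reported as imprinted in some mouse tissue, of which 56 were measured. Of these, 15 (26.8%) passed the F-test and ranged over 1 or more, against 12.7% of all genes, and 33 passed at any range, against 61.8%. The median range was 0.59 against 0.49 over all genes. By class, 16 were graded, 18 flat and 22 off, and 0 were on/off or stepped. The list thus held both silent genes and genes with wide ranges. It too was chosen with earlier results of these data known, so its share is a description, and an excess was not tested.

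Among the wide ones, Dcn, the matrix proteoglycan decorin, which is imprinted in the placenta, ranged over 3.60 log2 units (12.2-fold, adjusted p = 3.8e-17). It was at 12.20 ± 0.05 in subclone 2 and 11.93 ± 0.02 in subclone 28 and at 8.98 ± 0.18 in subclone 18 and 8.59 ± 0.02 in subclone 19. Slc38a4, an amino acid transporter gene, ranged over 2.88 (adjusted p = 3.39e-15) and was at 10.52 to 10.87 in subclones 18, 19 and 23 and at 7.98 ± 0.01 in subclone 2. Slc38a4 was called higher in subclones 18, 19 and 23 and lower in subclones 2, 3 and 24, where 0.857%, 0.885% and 0.555% of all genes were called higher and 0.627%, 0.407% and 0.687% lower. Sfmbt2, a Polycomb group gene, averaged 7.41 ± 0.04 in subclone 28, 6.43 ± 0.10 in 18 and 6.39 ± 0.06 in 23, with no mean above 4.96 among the other 5. All 9 arrays of those 3 subclones were above the floor and the other 14 under it.

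Sfmbt2 was therefore above the floor in the 3 subclones with the highest Ndn, though in another order: Ndn was highest in subclone 18 and Sfmbt2 in subclone 28. Sfmbt2 was called higher in subclone 28 (2.21 ± 0.071 SE, adjusted p = 4.1e-14), subclone 18 (1.09 ± 0.071, adjusted p = 2.94e-10) and subclone 23 (1.04 ± 0.071, adjusted p = 1.17e-09), where 0.973%, 0.857% and 0.555% of all genes were called higher. It was graded by the rule, as its widest gap was under 2. A second Sfmbt2 probe set was under the floor on all arrays. Ampd3, an AMP deaminase gene, was highest in subclone 28 (11.55 ± 0.04) and lowest in subclone 24 (9.65 ± 0.06), with a range of 1.90. Over the 8 contrasts of the list, subclone 24 had 4 genes called lower (Ampd3, Peg12, Sfmbt2 and Slc38a4), of which Peg12 and Sfmbt2 were under the floor there and in most other subclones, and subclone 28 had 4 called higher (Ampd3, Dcn, Ppp1r9a and Sfmbt2), against 0.687% and 0.973% of all genes.

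**Figure D4:**
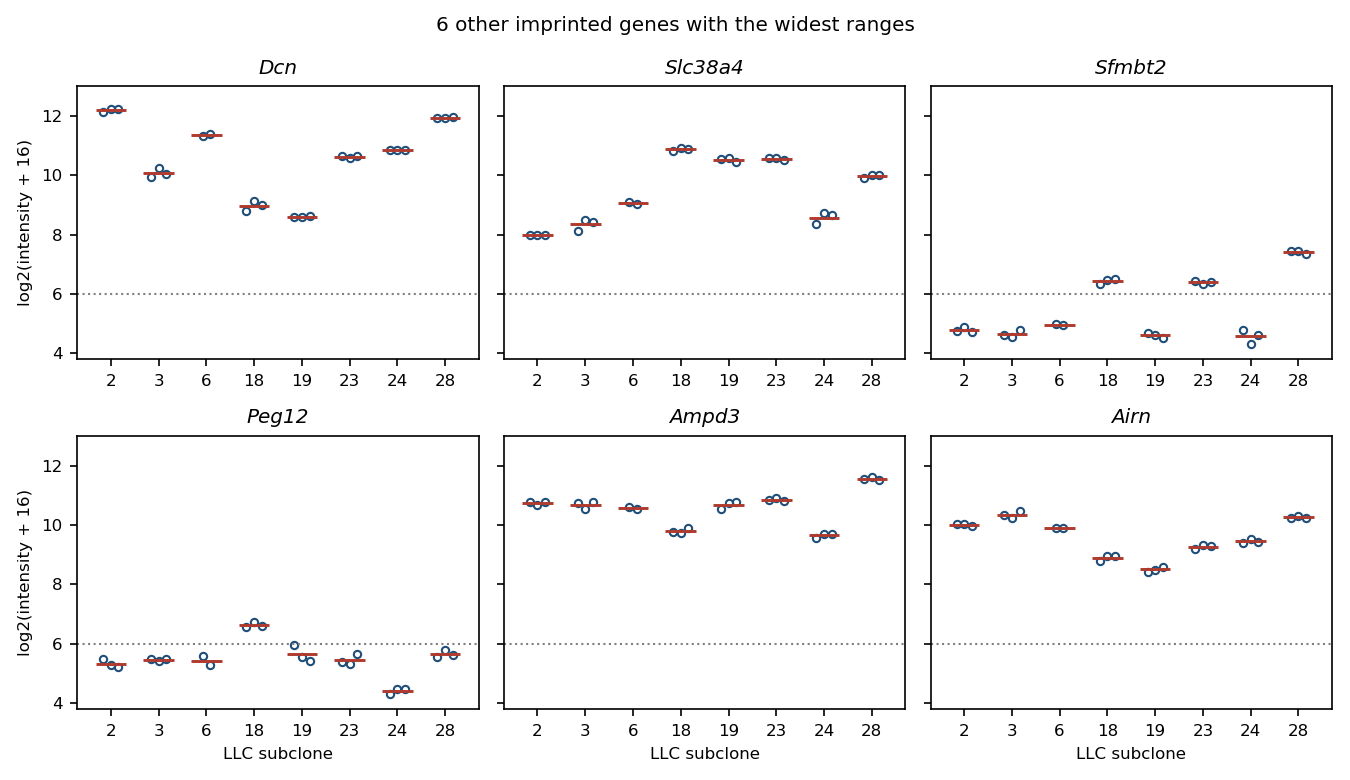
Levels of the 6 genes with the widest ranges among 56 other imprinted genes, as log2(intensity + 16), on each of 23 arrays (circles), with subclone means as red bars and the floor of 6 as a dotted line. Sfmbt2 is above the floor in subclones 18, 23 and 28 and Peg12 in subclone 18 alone, whereas Dcn, Slc38a4, Ampd3 and Airn are above it on all arrays.

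Of 25 genes for proteins that set or keep imprinted marks, 24 were measured. Of these, 3 (12.5%) passed the F-test and ranged over 1 or more, near the 12.7% of all genes. At any range 21 of the 24 passed, against 61.8% of all genes, and 3 were off, against 35.6%. Uhrf1, which brings the maintenance methyltransferase to newly replicated DNA, ranged over 1.03, from 9.66 in subclone 2 to 10.69 in subclone 18. Hells, a chromatin remodeller needed for DNA methylation, ranged over 1.02 and was also lowest in subclone 2 (9.43). Tet2, an enzyme that oxidises methylated cytosine, ranged over 1.02, from 7.88 in subclone 18 to 8.90 in subclone 28. All 3 sit at the border, and without subclone 2 replicate 2 the count was 1. Dnmt1, the maintenance methyltransferase itself, ranged over 0.94, between 10.24 in subclone 2 and 11.18 in subclone 18. Zfp57, which protects imprints in the early embryo, had subclone means of 5.31 to 5.83, under the floor, and its highest array was at 6.02.

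The 90 nearest measured genes around the 9 members included 9 (10.0%) that met both conditions, near the background of 12.7%. Besides Airn, Peg12 and Mkrn3 these were Lsp1, a leukocyte actin-binding protein gene near Igf2, with a range of 3.18, Fignl1 near Grb10 (1.64), Tnfrsf22 near Cdkn1c (1.59), Stx11 and Phactr2 near Plagl1 (1.30 and 1.27) and Zfp773 near Peg3 (1.01). Lsp1 was highest in subclone 2 (8.91 ± 0.08) and lowest in subclone 19 (5.73 ± 0.12, under the floor), while Igf2 was flat. Tnfrsf22 was called higher in subclone 3 (difference 1.20, adjusted p = 1.43e-09), as were 0.528% of all genes, while Cdkn1c was off. Fignl1 was lowest in subclone 2 (9.01), where Grb10 was at 10.51. Around Plagl1, Fuca2 (0.98), Ltv1 (0.96), Sf3b5 (0.94) and Pex3 (0.91) fell just short of a range of 1. They were lowest in subclone 24, like Phactr2, whereas Stx11 was lowest in subclone 18. Expressed genes of chromosome 10, which holds Plagl1, had median differences from −0.27 in subclone 24 to 0.25 in subclone 19 (515 genes). A shift of the whole chromosome was not tested.

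The genes whose pattern was most like each of the 3 varying members were sought among 2326 genes ranging over 1 or more, by Pearson's r over the 8 subclone means, which come from the same arrays. For Igf2r they were Slc22a17 (r = 0.974), Spa17 (r = 0.925) and Rnf149 (r = 0.918), each lowest in subclone 23, at 6.07, 5.75 and 10.27. Their rank correlations were 0.52, 0.31 and 0.83, and 461, 772 and 69 of the 2326 genes had a rank correlation at least as high. Ranked by rho instead, the genes most like Igf2r were others: P3h3 (0.98), Abcc3 (0.95) and Adamts4 (0.95), with r of 0.464, 0.604 and 0.726. For Ndn they were Adgrl1 (r = 0.980, rho = 0.98), an adhesion receptor gene, Stox2 (r = 0.936, rho = 0.76) and Hoxa10 (r = 0.936, rho = 0.90). Adgrl1 means were 9.13, 8.79 and 8.41 for subclones 18, 23 and 28 and lay between 7.62 and 8.11 elsewhere, above the floor. For Peg3 they were Egfr (r = 0.948), the epidermal growth factor receptor gene, Efemp1 (r = 0.937) and Cxcl2 (r = 0.933), all lowest in subclones 19 and 28. Egfr was at 6.84 and 6.61 there, against a minimum of 7.89 among the other 6. Efemp1 was under the floor there, at 4.72 and 4.69, against a minimum of 11.18. Ranked by rho, Cbx2 (0.95) took the place of Stox2 for Ndn and Crlf2 (0.90) that of Efemp1 for Peg3. The Ndn means of subclones 2, 3, 6, 19 and 24 lay under the floor, where values have no order. Every rho given for Ndn thus depends partly on ranks without meaning. None of the 9 genes found by r is on the chromosome of the member it resembles.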

How the data were processed

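The deposited table holds linear intensities, 1 per Affymetrix probe set and array. By what algorithm and scaling the authors made the deposited intensities was not given in the sources used here. Detection calls played no part. Control probe sets (64) were left out. The platform annotation gave 1 symbol to 34945 probe sets, several to 932 and none to 9160, and symbols were updated by Entrez identifier for 34741 through RefSeq (GRCm38.p6). The probe set with the highest mean of log2(intensity + 16) stood for each of 18193 genes. All 23 arrays entered 1 linear model of subclone means in limma 3.58.1 in R 4.3.3 (F-test, contrasts against the mean of the other 7, Benjamini-Hochberg over all genes).

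The members and lists were chosen with earlier results of these data known. Named genes are the members, the 6 widest genes past the test in each list, fixed pairs from shared domains and 3 genes most like each varying member. Further genes named for their level or background were chosen after their values were seen. Of 16 fixed pairs, 14 were measured. Alternatives covered pseudocount, floor, gap, filter, quantile normalization, probe set rule, limma-trend, the replicate number as a block and leaving out each array.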

Additional observations from a re-analysis of the deposited data

How the results depend on the processing

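Counts of genes that passed the F-test and ranged over 1 or more fell with a pseudocount of 64, which narrows ranges, most of all those of dim genes. They fell from 2308 to 1482 for all genes, from 8 to 5 for the IGF2 and mannose 6-phosphate list and from 3 to 0 for imprint maintenance (limma), where 21 still had an unadjusted p under 0.05. With the mean of all probe sets, all genes fell from 2308 to 1729, other imprinted genes from 15 to 11 and neighbouring genes from 9 to 5. The IGF2 list fell from 8 to 7 and imprint maintenance stayed at 3. Members were then 1 on/off (Ndn) and 0 graded. A pseudocount of 1 gave 2 stepped members (Igf2r and Ndn), a gap of 1 gave 1 graded and 2 stepped, and a gap of 3 gave 0 stepped. The stepped count was added after seeing the data. Floors of 5, 7 and 5.72 changed none of these 3 member counts. The split into flat and off did depend on the floor. With a floor of 5 Cdkn1c and Dlk1 were flat, and with a floor of 7 Igf2 and Plagl1 were off. The mean of all probe sets also made Igf2 and Plagl1 off.

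Leaving out 1 array gave 2299 to 2372 genes in all, 15 to 16 other imprinted genes, 1 to 3 maintenance genes, 8 in the IGF2 list and 8 to 10 neighbours. Members counted 0 on/off, 1 stepped and 2 to 3 graded, as Mest became graded without subclone 3 replicate 2 or subclone 23 replicate 3. Same-numbered arrays of different subclones did not deviate together (median r −0.00714, from −0.278 to 0.187), so the numbers do not pair them. With the replicate block the counts were 2314, 15, 3, 8 and 9 for all, other imprinted, maintenance, IGF2 and neighbouring genes. No detection calls were used, so levels near the floor give no order.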
